A study of Mus musculus with 32 samples.

Results

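The genes described here are 10 lymphoid genes of the mouse, read library by library in 2 kinds of sorted bone marrow cell. They were taken by name from a count table of 33924 genes, and all 10 were found and passed the filter on low counts in both cell types. The 7 priming genes are Dntt, Rag1, Rag2, Il7r, Satb1, Notch1 and Btla. The other 3 are immunoglobulin genes: Ighm, Igj and Igkc. Igj is the older symbol of the gene now called Jchain.

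The 32 libraries came from mice whose blood cells carried Jak2V617F, a mutation of human myeloproliferative neoplasms that keeps the JAK2 kinase switched on. The donor cells received Dre mRNA outside the body, which turned the mutant allele on, and were then given to recipients that had been irradiated with a lethal dose. Each recipient was later given tamoxifen (TAM), ruxolitinib or vehicle. Tamoxifen activates the Cre recombinase that removes Jak2V617F, and ruxolitinib inhibits JAK1 and JAK2. All groups, vehicle included, therefore carried the activated mutation at the start, and no group without it was compared. The sources used here do not give the promoter that drives Cre or the ages of the mice.

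There were 16 libraries of LSK cells, the Lin- Sca-1+ Kit+ fraction that holds stem and multipotent progenitor cells, and 16 of MEP cells, the megakaryocyte and erythroid progenitors. In LSK cells batch A held vehicle at day 0 (vehicle A, n = 4), tamoxifen day 3 (n = 3) and tamoxifen day 7 (n = 4), and batch C held ruxolitinib day 7 (n = 3) and vehicle at day 0 (vehicle C, n = 2). In MEP cells the numbers were 3 for vehicle A, 4 for tamoxifen day 3 and 3 for tamoxifen day 7, and 3 each for ruxolitinib and vehicle C. Because vehicle was taken at day 0, each comparison with vehicle also spans the days of treatment. No group received tamoxifen without the deletion, so effects of the drug itself cannot be told apart from those of deletion. The labels do not say that replicates are separate animals, so p-values measure the spread between these libraries. Tamoxifen was compared with vehicle A and ruxolitinib with vehicle C, so treatment was never compared across batches.

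Multipotent progenitors begin to transcribe lymphoid genes at a low level before they commit to a lymphoid fate, which is known as lymphoid priming. The RAG1 and RAG2 proteins together cut DNA at the antigen receptor loci, and terminal deoxynucleotidyl transferase, the product of Dntt, adds nucleotides where the cut ends are joined. IL-7 signals through the receptor made from Il7r, which uses JAK1 and JAK3, to sustain early lymphocytes. Immunoglobulin constant regions are transcribed strongly in B cells and most strongly in plasma cells, but some transcripts that have not been rearranged also arise in early progenitors.

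Positions are those of the mm10 build. Rag1 (chr2:101638282-101649501, minus strand) and Rag2 (chr2:101624718-101632529, plus strand) are neighbours transcribed towards each other. Dntt lies at chr19:41029275-41059525 on the plus strand and Il7r at chr15:9505788-9530176 on the minus strand. Satb1 (chr17:51736187-51833290) and Notch1 (chr2:26457903-26516663) lie on the minus strand, and Btla (chr16:45224315-45257670) on the plus strand. Ighm, the mu heavy chain constant region, occupies chr12:113418558-113422730 on the minus strand. Igkc, the kappa light chain constant region, occupies chr6:70726435-70726966 on the plus strand, and Igj chr5:88519809-88527891 on the minus strand.

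The stretches of 250 bases before the start sites of Rag1, Rag2 and Igj are shown because these genes carry the MEP results below. They come from RefSeq on GRCm38.p6, the build also called mm10, and are given 5′ to 3′ on the strand of the gene. Capitals mark CANCTG, the form of E-box bound by E proteins, and TGGGAA, the core of the Ikaros site, both searched on both strands and marked whichever strand they match. The Rag1 stretch is chr2:101649533-101649782 (minus strand), the Rag2 stretch chr2:101624462-101624711 (plus strand) and the Igj stretch chr5:88527898-88528147 (minus strand).
Rag1: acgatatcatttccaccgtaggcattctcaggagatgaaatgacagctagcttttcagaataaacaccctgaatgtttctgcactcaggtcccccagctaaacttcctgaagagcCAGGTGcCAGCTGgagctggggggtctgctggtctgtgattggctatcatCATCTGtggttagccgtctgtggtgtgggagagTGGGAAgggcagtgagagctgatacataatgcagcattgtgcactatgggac
Rag2: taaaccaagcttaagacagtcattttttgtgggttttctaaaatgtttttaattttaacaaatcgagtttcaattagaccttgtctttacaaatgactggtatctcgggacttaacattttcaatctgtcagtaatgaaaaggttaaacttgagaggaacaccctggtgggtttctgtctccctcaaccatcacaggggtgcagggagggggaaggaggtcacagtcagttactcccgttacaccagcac
Igj: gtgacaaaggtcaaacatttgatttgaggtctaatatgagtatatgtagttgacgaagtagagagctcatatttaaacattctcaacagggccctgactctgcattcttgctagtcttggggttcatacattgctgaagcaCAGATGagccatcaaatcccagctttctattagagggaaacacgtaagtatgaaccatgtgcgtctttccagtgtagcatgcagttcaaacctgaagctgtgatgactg

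Rag1 held 3 CANCTG matches before its start site, the first 2 of them 135 and 128 bases upstream, and 1 TGGGAA match. Rag2 held neither motif in the printed stretch. The third motif searched, TTCNNNGAA, is the palindrome bound by STAT proteins, the transcription factors that JAK kinases activate. It was found in the window of Il7r alone, at chr15:9530000-9530028 (minus strand), where capitals mark the match.
Il7r: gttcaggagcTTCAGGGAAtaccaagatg
Over windows of 250 bases before to 50 after the start site, TTCNNNGAA was found in 1 of the 8 genes with a window in the RefSeq table and in 8.3% of all 32851 windows. CANCTG was found in 6 of the 8 genes and in 51.4% of all windows, and TGGGAA in 3 of the 8 genes and 25.6% of all windows. A match is a description of the letters and does not show that a factor binds there.

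The libraries held 11160696 to 28838622 counts in batch A and 26511752 to 55473241 counts in batch C. Levels are given in CPM, a gene's count scaled to the library total after TMM adjustment so that libraries of unequal depth can be compared. A gene was called when its adjusted p in edgeR's quasi-likelihood test was below 0.05 over all genes of that cell type. Jak2 itself was called in none of the treatment comparisons, with log2 changes of -0.51 to 0.24 under tamoxifen, and of 0.1 (LSK) and -0.46 (MEP) under ruxolitinib. A gene count does not separate the mutant from the normal allele. Ly6a, which encodes Sca-1, ran from 14.5 to 204 CPM in LSK libraries and from 0 to 1.33 CPM in MEP libraries, and Gata1, the erythroid and megakaryocytic factor, from 118 to 308 CPM in LSK and 331 to 1065 CPM in MEP libraries.

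Some features of the libraries touch the results below. The library descriptions carry numbers whose meaning the labels do not state, and every vehicle C library has the number of a vehicle A library of the same cell type. Such pairs differed by far more than counting error, with a chi-square of 40.7 to 93.1 per degree of freedom, so they were not 1 library deposited in duplicate, but they may share an animal. Genes of odorant and pheromone receptors, which have no known role in blood progenitors, made up 0.00129% to 0.185% of counts, and this share differed between batches and groups. Its values are given beside the low genes with which it moved. In bulk libraries, fewer cells of a type and less RNA per cell cannot be told apart.

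At the start of treatment the lymphoid genes were mostly lower in MEP cells than in LSK cells, and the immunoglobulin genes by the widest margins. Of the 10 genes, 7 were called lower in MEP vehicle A libraries than in LSK vehicle A libraries and none higher, against 17.4% of all 28378 genes called and 8.71% called lower. In 7 genes, the called ones without Il7r but with Rag2, all 3 MEP libraries lay below every LSK library, as did 11.3% of all genes. The priming genes called were Dntt, Il7r, Satb1 (a chromatin organiser of lymphoid progenitors and T cells) and Btla (an inhibitory receptor of lymphocytes). Levels in this comparison come from a fit over both cell types.

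Dntt averaged 2.37 ± 0.479 CPM in MEP vehicle A and 88.8 ± 103 CPM in LSK vehicle A (SD, n = 3 and 4), a log2 difference of -5.22 ± 0.92 (SE; edgeR adjusted p = 7.46e-05). Btla averaged 0.699 ± 0.449 CPM in MEP cells and 15.3 ± 12.0 CPM in LSK cells, a log2 difference of -4.43 ± 0.68 (edgeR adjusted p = 9.26e-06). Il7r differed by -2.27 ± 0.52 and Satb1 by -2.44 ± 0.54 on the log2 scale (edgeR adjusted p = 0.00173 and 0.00117). The immunoglobulin differences were wider, at -9.6 ± 1.14 for Ighm, -10.25 ± 1.28 for Igj and -12.04 ± 1.6 for Igkc.

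Rag1, Rag2 and Notch1 were not called between the cell types. Rag1 averaged 2.25 ± 0.538 CPM in MEP cells and 3.15 ± 2.08 CPM in LSK cells, a log2 difference of -0.48 with an interval of 2 SE from -1.89 to 0.93. Notch1, the receptor that drives T lineage commitment, averaged 22.3 ± 4.52 CPM in MEP cells and 34.7 ± 14.7 CPM in LSK cells, a log2 difference of -0.64 (interval -1.5 to 0.22). Rag2 differed by -1.11 ± 0.49 on the log2 scale (edgeR adjusted p = 0.129), although DESeq2 called it (adjusted p = 0.0269; 21.9% of all genes called).

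Other early lymphoid genes mostly lay the same way. Of 28 listed, 17 were lower in MEP cells, among them Flt3, the receptor that marks lymphoid-primed progenitors (log2 difference -3.7 ± 0.74). Ikzf1, which encodes Ikaros, and Tcf3, which encodes the E proteins E12 and E47, were higher in MEP cells, by 2.43 ± 0.32 and 2.26 ± 0.33. Of 11 partners of RAG in V(D)J recombination, Hmgb2, Xrcc5 and Xrcc6 were higher in MEP cells and none lower.

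**Figure D1:**
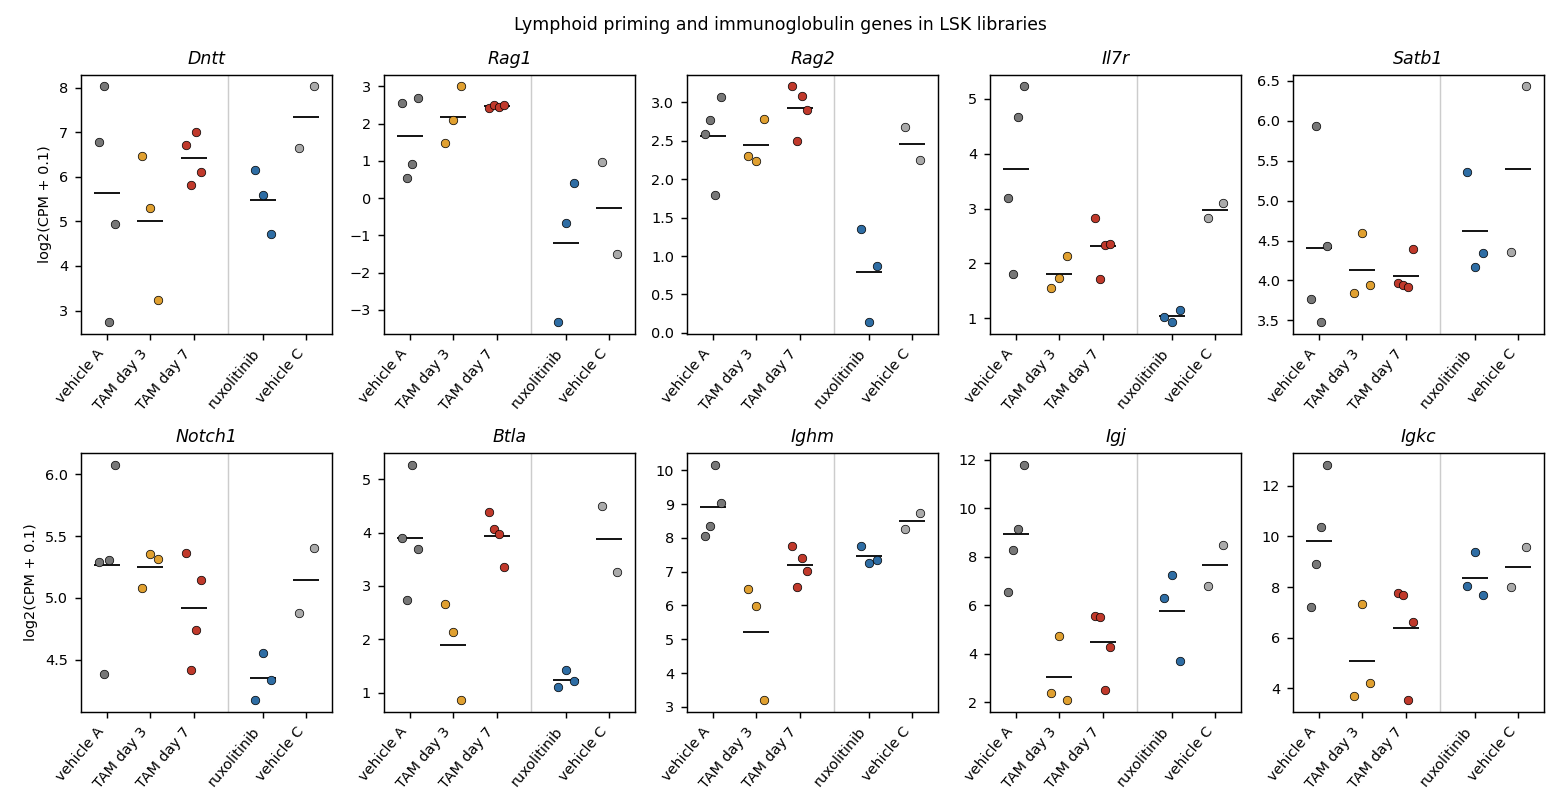
Level of each of the 10 genes in each of the 16 LSK libraries, as log2(CPM + 0.1), by group. Points are libraries, lines are group means on this scale, and the grey line separates batch A (left) from batch C (right). The 4 vehicle A libraries are widely scattered for Dntt, Il7r, Igj and Igkc, and the 3 ruxolitinib libraries lie below both vehicle C libraries for Btla, Il7r and Rag2.

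In LSK cells the vehicle A libraries were widely spread for most of the 10 genes. From the lowest to the highest of the 4 libraries, Igkc spanned 48.9-fold, Dntt 39.6-fold, Igj 38-fold and Il7r 11-fold. Rag2 spanned 2.46-fold. Replicate 4 held the highest Igkc, Igj and Il7r, replicate 2 the highest Dntt and Satb1, and replicate 3 the highest Ighm and Btla.

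The numbers that vehicle A and vehicle C libraries share allow a look at this spread. Dntt stood at 101 CPM in vehicle C and 110 CPM in vehicle A for number 12, and at 261 CPM in both for number 18. Ighm stood at 309 CPM in vehicle C and 265 CPM in vehicle A for number 12, and at 424 and 330 CPM for number 18. Igj, Igkc and Satb1 likewise had their higher value at number 18 in both batches. The order turned for Il7r, at 7.03 CPM (number 12) and 8.48 CPM (number 18) in vehicle C, and 9.04 and 3.39 CPM in vehicle A. It also turned for Notch1, at 29.4 and 42.3 CPM in vehicle C, and 39.1 and 20.8 CPM in vehicle A, and for Rag2. Rag1 was lower in the vehicle C library at both numbers, with 1.86 against 5.75 CPM at number 12 and 0.255 against 1.35 CPM at number 18, and the receptor share was lower there too, at 0.0612% against 0.110% and 0.0152% against 0.03%.

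Tamoxifen day 3 against vehicle A gives the earlier time after tamoxifen, which was given to remove the mutation. In LSK cells none of the 10 genes was called, against 0% of all 26930 genes, and 5 had an unadjusted p below 0.05, as did 1019 of all genes. DESeq2 called 5 of the 10 (Il7r, Btla, Ighm, Igj and Igkc, all lower) and 0.345% of all genes. In 3 genes, Btla, Ighm and Igj, all day 3 libraries lay below every vehicle A library, as did 2.07% of all genes. The median log2 change was -0.59 over the 7 priming genes and -5.17 over the 3 immunoglobulin genes, beside -0.02 over all genes.

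Ighm held 89.3, 63.1 and 9.06 CPM in the day 3 libraries, against 265, 330, 1151 and 526 CPM in vehicle A. Every day 3 library was below every vehicle A library, and the log2 change was -3.4 ± 0.63 (SE; edgeR adjusted p = 0.155). Igj, the joining chain of secreted IgM and IgA, held 5.08, 26.3 and 4.16 CPM, against 93.8, 309, 568 and 3568 CPM in vehicle A (log2 change -6.58 ± 1.34, edgeR adjusted p = 0.194). The Igj groups did not overlap either, and without vehicle A replicate 3 both genes passed, at edgeR adjusted p = 0.0415 for Ighm (log2 change -2.81) and 0.0377 for Igj. Igkc held 12.7, 162 and 18.3 CPM, against 150, 475, 1309 and 7338 CPM in vehicle A, so that 1 day 3 library overlapped the lowest vehicle library (log2 change -5.17 ± 1.34, edgeR adjusted p = 0.433). Without vehicle A replicate 4 the changes were -4.78 for Igj and -3.34 for Igkc, and without day 3 replicate 2 they were -7.97 and -7.27.

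Among the priming genes at day 3, Btla held 6.26, 4.31 and 1.71 CPM, against 14.7, 6.57, 38.6 and 12.8 CPM in vehicle A (log2 change -2.14 ± 0.55, edgeR adjusted p = 0.399). Il7r held 2.81, 3.2 and 4.29 CPM, against 9.04, 3.39, 25.5 and 37.4 CPM (log2 change -2.46 ± 0.59, edgeR adjusted p = 0.34), and overlapped through vehicle A replicate 2. Rag1 (0.37 ± 0.81), Rag2 (-0.16 ± 0.4), Notch1 (-0.13 ± 0.32), Satb1 (-0.59 ± 0.53) and Dntt (-1.16 ± 0.83) had smaller estimates, and all had intervals of 2 SE that included 0. Macrophage genes moved with these libraries. The summed level of 10 macrophage markers, all detected, was 1425 to 9471 CPM at day 3, against 192, 137, 3857 and 158 CPM in vehicle A, and its part in the lymphoid values was not tested.

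At day 7 of tamoxifen none of the 10 genes was called in LSK cells by edgeR, against 0.104% of all genes, and 4 had an unadjusted p below 0.05, as did 2405 of all genes. DESeq2 called 4 (Il7r, Ighm, Igj and Igkc, all lower), against 1.24% of all genes. Ighm and Igj again lay below every vehicle A library, as did 2.18% of all genes. The median log2 change was -0.2 over the priming genes, -4.12 over the immunoglobulin genes and -0.09 over all genes.

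Igj held 47.3, 46.3, 5.61 and 19.6 CPM at day 7, against 93.8, 309, 568 and 3568 CPM in vehicle A (log2 change -5.25 ± 1.1, edgeR adjusted p = 0.0713). It passed without vehicle A replicate 1 (edgeR adjusted p = 0.0336), without day 7 replicate 4 (0.0253) and without the count filter (0.0382). Ighm held 218, 93.1, 169 and 130 CPM (log2 change -1.9 ± 0.53, edgeR adjusted p = 0.186). Igkc held 220, 205, 11.4 and 97.1 CPM, so that 2 day 7 libraries lay above the lowest vehicle library (log2 change -4.12 ± 1.12, edgeR adjusted p = 0.176). Without vehicle A replicate 4, which stood far above the others, the changes were -2.26 for Igkc and -3.43 for Igj.

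Of the priming genes at day 7, Il7r held 7.01, 3.19, 4.91 and 5.01 CPM, against 9.04, 3.39, 25.5 and 37.4 CPM in vehicle A (log2 change -1.9 ± 0.52, edgeR adjusted p = 0.176). It overlapped through vehicle A replicate 2, and edgeR called it without that library (log2 change -2.25, adjusted p = 0.0352). Satb1 (-0.69 ± 0.49), Notch1 (-0.42 ± 0.3), Rag1 (0.52 ± 0.75) and Rag2 (0.32 ± 0.37) had intervals of 2 SE that included 0. Btla held 20.8, 16.6, 15.6 and 10.1 CPM, within the vehicle A range (log2 change -0.2 ± 0.47). It lay above every day 3 library, as Ighm did, in a set that took in 4.57% of all genes. The log2 difference of Btla between day 7 and day 3 was 1.94 ± 0.54 (edgeR adjusted p = 0.18, with 0 of the 10 genes called and 0.00743% of all genes), and DESeq2 called it (adjusted p = 0.0148; 1.14% of all genes called). Rag1 held between 5.23 and 5.59 CPM in all 4 day 7 libraries, against 1.35 to 6.34 CPM in vehicle A. Dntt held 105, 56.6, 129 and 68.7 CPM, inside the vehicle A range of 6.6 to 261 CPM.

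Of the wider lists, none of the 28 early lymphoid, 21 B lineage or 16 plasma cell genes was called in LSK cells by edgeR at day 3 or day 7. An unadjusted p below 0.05 at day 7 was found for 7, 3 and 8 of them, and the medians were -0.4, -0.48 and -1.2 on the log2 scale. Of 18 T and NK cell genes, Gzmb, which encodes granzyme B, rose at day 7 by 2.34 ± 0.36 (edgeR adjusted p = 0.0219). The neutrophil genes S100a8, S100a9 and Camp also rose at day 7, S100a8 by 5.1 ± 0.49. The plasma cell list itself holds immunoglobulin constant regions, among them Ighg1 and Iglc3. Its summed level was 176 to 192 CPM at day 3 and 125 to 377 CPM at day 7. In vehicle A it was 308 to 1603 CPM, and replicates 3 and 4 were highest, at 1603 and 900 CPM. Iglc3 made up 1329 and 371 CPM of these. The sum is therefore not a measure of plasma cells separate from immunoglobulin genes, and the part of plasma cells in the immunoglobulin values was not tested.

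Ruxolitinib inhibits the kinase and leaves the mutant gene in place. In LSK cells all 10 genes had lower estimates than in vehicle C, none was called (0.0223% of all genes were), and 4 had an unadjusted p below 0.05, as did 2402 of all genes. In 6 of them, Dntt, Rag2, Il7r, Notch1, Btla and Ighm, all 3 ruxolitinib libraries lay below both vehicle C libraries, as did 12.3% of all genes. The median log2 change was -1.66 over the priming genes, -1.04 over the immunoglobulin genes and -0.25 over all genes.

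Btla held 2.05, 2.57 and 2.22 CPM under ruxolitinib, against 22.5 and 9.43 CPM in vehicle C (log2 change -2.8 ± 0.62, edgeR adjusted p = 0.268), and was the only one of the 10 that DESeq2 called (adjusted p = 0.0119; 0.49% of all genes called). Il7r held 1.92, 1.81 and 2.13 CPM, against 7.03 and 8.48 CPM (log2 change -1.99 ± 0.65, edgeR adjusted p = 0.49). Rag2 held 2.45, 1.0 and 1.72 CPM, against 6.29 and 4.66 CPM (log2 change -1.66 ± 0.47, edgeR adjusted p = 0.434). The 3 ruxolitinib libraries were close to each other for Btla and Il7r and stood apart from both vehicle libraries.

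Dntt held 70.8, 48.3 and 26.1 CPM under ruxolitinib, against 101 and 261 CPM in vehicle C (log2 change -1.9 ± 0.95). Igkc overlapped, with 264, 662 and 205 CPM under ruxolitinib against 254 and 764 CPM in vehicle C (log2 change -0.43 ± 1.27). The odorant and pheromone receptor share was 0.0184% ± 0.0162 under ruxolitinib and 0.0382% ± 0.0325 in vehicle C, and its part in the low values of Rag1 and Rag2 was not tested. No gene of the early lymphoid, B lineage, plasma cell, T and NK or Notch lists was called by edgeR, and 3, 2, 3, 3 and 0 of them had an unadjusted p below 0.05.

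**Figure D2:**
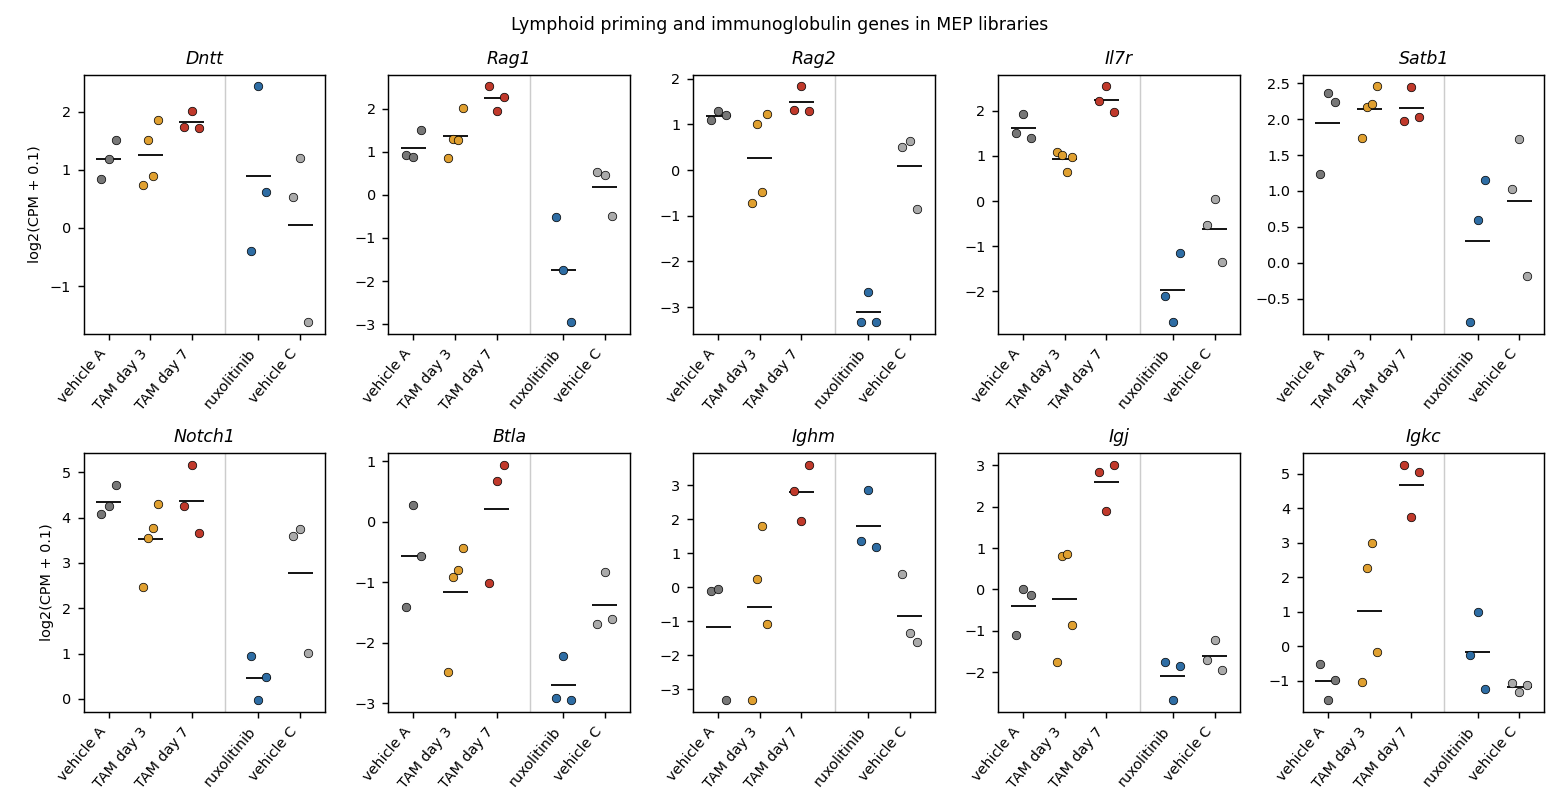
Level of each of the 10 genes in each of the 16 MEP libraries, as log2(CPM + 0.1), by group. Points are libraries, lines are group means on this scale, and the grey line separates batch A (left) from batch C (right). All 3 tamoxifen day 7 libraries lie above every vehicle A library for Igkc, Igj and Ighm, and the 3 ruxolitinib libraries lie below vehicle C for Rag1, Rag2, Notch1 and Btla.

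In MEP cells the immunoglobulin genes had vehicle A levels near 0 and were higher by day 7 of tamoxifen. At day 3 none of the 10 genes was called by edgeR, against 1.21% of all 25274 genes, and 1 had an unadjusted p below 0.05, as did 1714 of all genes. That gene was Igkc, which held 0.391, 4.73, 7.91 and 0.787 CPM at day 3, against 0.597, 0.237 and 0.409 CPM in vehicle A. Day 3 replicates 2 and 3 stood clear of vehicle, replicate 4 just above it and replicate 1 within its range (log2 change 3.06 ± 0.78, edgeR adjusted p = 0.0507). DESeq2 called it (adjusted p = 0.0134; 2.7% of all genes called), and edgeR called it without day 3 replicate 1 (0.00821) or replicate 4 (0.0347), without the count filter (0.0163) and in the compared groups alone (0.0309). Il7r lay below every vehicle A library in all day 3 libraries, with 1.46 to 2.03 CPM at day 3 against 2.53 to 3.67 CPM in vehicle A, as did 3.55% of all genes.

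At day 7 the 3 immunoglobulin genes were called higher and no priming gene was called, against 8.42% of all genes called and 1.38% called higher. In 7 of the 10 genes every day 7 library lay above vehicle A, as did 15.2% of all genes. The median log2 change was 3.74 over the immunoglobulin genes, 0.65 over the priming genes and 0.21 over all genes.

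Igkc held 38.5, 13.4 and 33.0 CPM at day 7, from 1071, 286 and 743 counts, against 13, 6 and 10 counts in the vehicle A libraries (log2 change 6.09 ± 0.87, edgeR adjusted p = 2.2e-05). Igj held 7.02, 3.65 and 7.99 CPM, against 0.367, 0.908 and 0.817 CPM in vehicle A (log2 change 3.14 ± 0.68, edgeR adjusted p = 0.00304). Ighm held 6.95, 3.79 and 12.1 CPM, against 0.826, 0.868 and 0 CPM in vehicle A (log2 change 3.74 ± 1.05, edgeR adjusted p = 0.0233). None of the 3 genes overlapped between the groups, and replicate 2 was the lowest day 7 library for each.

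The Ighm call was lost without day 7 replicate 3 (edgeR adjusted p = 0.0828) and without vehicle A replicate 1 (0.0578), 2 (0.0577) or 3 (0.0865). Igkc and Igj were called under every alternative run. Between day 7 and day 3, Igkc was higher by 3.03 ± 0.65 and Igj by 2.63 ± 0.6 (edgeR adjusted p = 0.00231 and 0.00381), the 2 of the 10 genes called, against 7.47% of all genes called and 1.04% called higher. Ighm was higher by 2.65 ± 0.88 and was not called (edgeR adjusted p = 0.0736), but it was called without day 3 replicate 3 (0.00595), without the count filter (0.0353) and in the compared groups alone (0.0064).

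Of the priming genes at day 7, Rag1 held 5.65, 3.79 and 4.75 CPM, against 1.79, 1.74 and 2.74 CPM in vehicle A, with no overlap (log2 change 1.18 ± 0.58, edgeR adjusted p = 0.28). Il7r held 4.53, 5.7 and 3.82 CPM, against 2.75, 3.67 and 2.53 CPM, again with no overlap (log2 change 0.65 ± 0.51). Dntt held 3.24, 3.93 and 3.19 CPM, against 1.7, 2.17 and 2.74 CPM. Rag2 also lay above vehicle A in each library, at 2.38, 3.46 and 2.35 CPM against 2.02, 2.33 and 2.21 CPM. Satb1 and Notch1 overlapped, with log2 changes of 0.15 ± 0.52 and 0.11 ± 0.5.

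The receptor share moved the same way, at 0.121% ± 0.0561 of counts at day 7 and 0.0503% ± 0.0137 in vehicle A, and its part in the values of the low priming genes was not tested. DESeq2 called Rag1 at day 7 (adjusted p = 0.0466; 12.3% of all genes called), as did edgeR on the compared groups alone (0.0358). The summed level of 10 neutrophil markers was 42.2 to 55.9 CPM at day 7, against 10.5 to 16.6 CPM in vehicle A, and no marker was at 0 throughout either group. Markers of LSK cells moved in the same direction. The summed level of 10 LSK markers was 741 to 1271 CPM at day 7, against 283 to 588 CPM in vehicle A. Ly6a, Kit and Meis1 were called higher, with a list median of 1.07. Over the 16 MEP libraries Kit ran from 182 to 1167 CPM, whereas Ly6a reached 1.33 CPM and Mecom 10.7 CPM at most. The sum may therefore largely be Kit. Ly6a, the Sca-1 gene that the sort excludes from MEP cells, averaged 0.807 CPM at day 7 and 0.0136 CPM in vehicle A. Of 10 MEP markers, 5 were called lower and Kit, which is in both lists, higher, with a median of -1.14, and their summed level was 6282 to 9571 CPM at day 7 against 7112 to 11520 CPM in vehicle A. The part of these markers in the immunoglobulin values was not tested. Neutrophil S100a8 rose by 5.4 ± 0.75 and S100a9 by 3.86 ± 0.66, and their part in the immunoglobulin values was not tested.

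None of the 21 B lineage genes was called at day 7 by edgeR, 2 had an unadjusted p below 0.05, and their median log2 change was 0.5. Their summed level was 86.6 to 99.3 CPM at day 7 and 69.0 to 99.8 CPM in vehicle A. Of 16 plasma cell genes, Ighg1, a gamma heavy chain constant region, rose by 5.79 ± 0.93 to 17.2 CPM, against 0.307 CPM in vehicle A (edgeR adjusted p = 9.87e-05), and Creld2 fell by 2.12 on the log2 scale. Xbp1 and Prdm1, the regulators of the plasma cell programme, were not called: Xbp1 held 9.18, 9.35 and 8.65 CPM at day 7, against 11.1, 10.7 and 5.93 CPM, and Prdm1 held 3.53, 5.23 and 5.72 CPM, against 2.62, 4.07 and 4.45 CPM.

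The early lymphoid genes called at day 7 in MEP cells mostly rose. Of 28, 4 rose: Myb (1.57 ± 0.24), Mef2c (1.33 ± 0.4), Lsp1 (1.67 ± 0.48) and Ly6d (3.67 ± 1.07). Tcf3 alone of this list fell, by 1.45 on the log2 scale. Of the 11 V(D)J partners, Polm, a polymerase of end joining, fell by 2.12. Myb had already risen at day 3, by 1.3 ± 0.23, the only early lymphoid gene called then. Of 17 Notch pathway genes tested, Nrarp and Adam10 fell at day 7, and Nkg7 and Gzmb of the T and NK list rose by 2.73 ± 0.67 and 2.26 ± 0.62.

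At day 7, 3 descriptions carried the same number in both cell types, which allows MEP and LSK levels to be set side by side. Igkc in the MEP library was 21.3%, 8.12% and 40.1% of its level in the LSK library for numbers 15, 18 and 7. Igj stood at 18%, 9.82% and 48.1%, and Ighg1 at 21%, 24.7% and 42.3%. Ighm stood lower, at 3.86%, 5.07% and 11%, and Dntt at 3.73%, 8.65% and 5.5%. Btla stood at 2.31%, 11.3% and 21.3%. The other priming genes were mostly nearer to the LSK level than the immunoglobulin genes, with Rag1 at 131%, 85.1% and 100%, Il7r at 78.5%, 223% and 90%, and Notch1 at 55.6%, 210% and 41.9%. Rag2 and Satb1 lay between 22.5% and 77.7%. Rag1 held only 4.17 to 5.96 CPM in all of these libraries. For numbers 15, 18 and 7 the receptor share was 0.0978%, 0.185% and 0.0801% in MEP libraries. In the LSK libraries it was 0.0878%, 0.0959% and 0.113%, and its part in these ratios was not tested.

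The day 7 estimates of the immunoglobulin genes were positive in MEP cells and negative in LSK cells. In a fit over both cell types, the MEP change minus the LSK change was 5.53 ± 1.16 for Ighm, 8.26 ± 1.35 for Igj and 10.07 ± 1.65 for Igkc in log2 units (edgeR adjusted p = 0.0216, 0.0016 and 0.0016). These were the 3 of the 10 genes called, against 0.458% of all genes called and 0.296% called higher. A limma-voom fit took libraries of the same treatment, day and description number as a random block. Ruxolitinib libraries, which carry no such number, were blocked by replicate. The differences were then 6.4, 7.33 and 9.12 and none was called (limma adjusted p = 0.0812, 0.103 and 0.0883). The Ighm call was also lost without MEP day 7 replicate 3 (edgeR adjusted p = 0.0759) and without MEP vehicle A replicate 2 (0.076) or 3 (0.0789). Among the priming genes Il7r had the widest difference, 2.44 ± 0.7 (edgeR adjusted p = 0.117), and it was called by edgeR without LSK vehicle A replicate 2 (0.0229) or among genes with a mean of at least 1 CPM (0.0484), and by DESeq2 (0.00708).

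**Figure D3:**
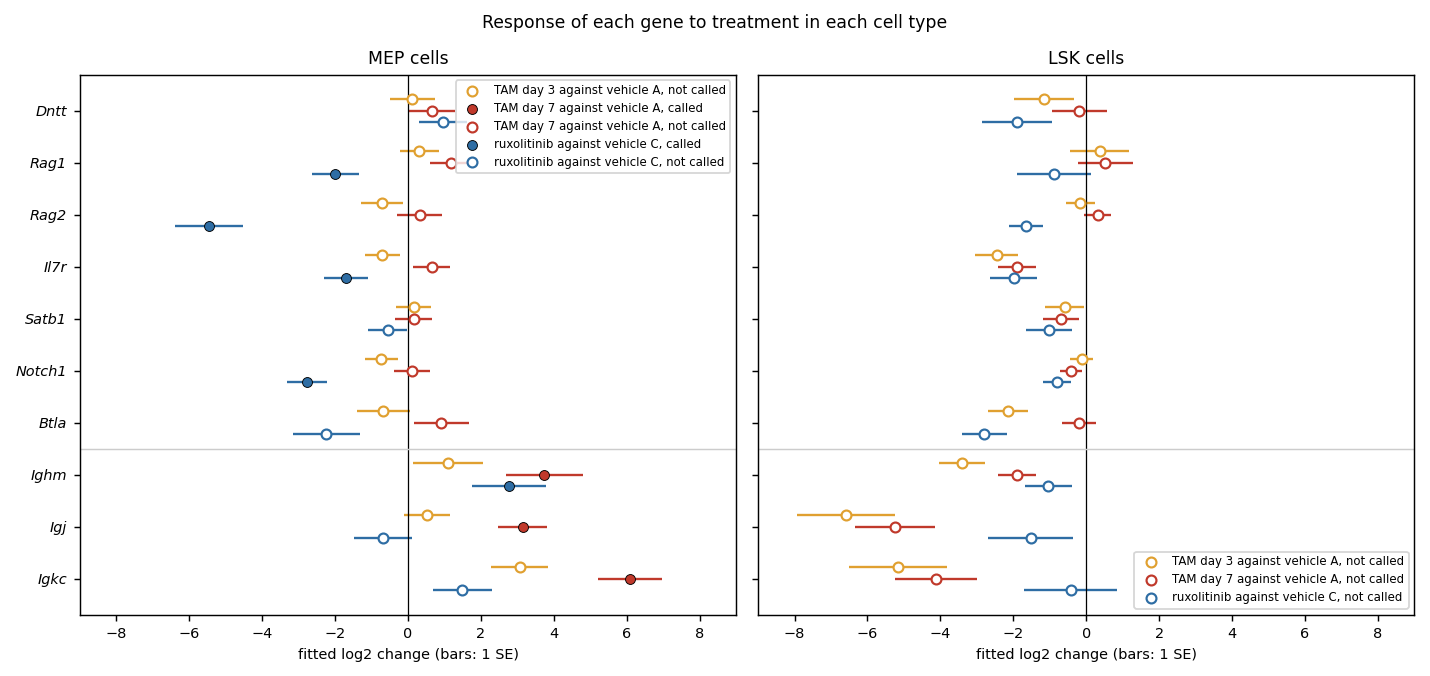
Fitted log2 change of each gene against vehicle of its batch in MEP cells (left) and LSK cells (right). Points are estimates with bars of 1 SE, filled where called by edgeR and open where not, in orange for tamoxifen day 3, red for tamoxifen day 7 and blue for ruxolitinib. The 3 immunoglobulin genes (below the grey line) have positive tamoxifen changes in MEP cells, up to 6.09 for Igkc, and negative ones in LSK cells, down to -6.58 for Igj.

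Variable (V) segments of the immunoglobulin loci, of which the table holds 140, give another view of these loci. When few B or plasma cell clones make most of the transcripts, 1 V segment can take a large share of the counts. A large share does not by itself show few clones, because many clones can use the same segment. The number of clones was not tested. V segments are close copies of each other, and how reads with several alignments were counted is not given, so a count may belong to a neighbour. In LSK cells the leading segment took 15.3% to 60.1% of V counts in vehicle A, 4.86% to 73.6% at day 3, and 4.95% to 18.9% at day 7. It took 28.7% to 47.4% under ruxolitinib and 30.1% to 60.3% in vehicle C.

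The 73.6% belonged to Igkv6-20 in day 3 replicate 2, the library that also held the highest Igkc of its group. Iglv1 led in all 4 vehicle A libraries and both vehicle C libraries. The summed V level had a median of 1484 CPM in LSK vehicle A, 80.8 CPM at day 3 and 187 CPM at day 7.

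The LSK vehicle libraries of 1 number had like V profiles in both batches. At number 18, Iglv1 took 60.3% of V counts in vehicle C and 60.1% in vehicle A, and Igkv1-110 took 9.81% and 9.35%. At number 12, Iglv1 took 30.1% in vehicle C and 30.2% in vehicle A, whereas Igkv8-28 took 21.5% and 17%, which lie outside each other's 95% Wilson intervals (20.7 to 22.2% and 16 to 18%). These intervals cover counting error only. Iglv1 and Igkv8-28 also led the vehicle A library of number 14, at 40.9% and 19.5%, so their lead was not particular to number 12. The segment that came next was Ighv1-59 in both libraries of number 12 and Igkv19-93 in that of number 14. The LSK day 7 library of number 18 was led by Igkv1-135 at 18.9%, with Iglv1 at 5.99%, unlike the vehicle libraries that carry this number. In MEP cells number 12 was led by Igkv1-35 in vehicle C and by Igkv4-92 in vehicle A.

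In MEP cells no vehicle A library had a leading segment above 5.44%. The leading segment took 4.0% to 7.59% at day 3 and 4.91% to 15.8% at day 7, where Iglv1 led in replicate 1 and Igkv12-89 in the other 2. The summed V level had a median of 24.7 CPM in vehicle A, 30.3 CPM at day 3 and 74.3 CPM at day 7. In vehicle A it ran from 20.2 to 33.1 CPM, beside 1.23 to 2.01 CPM for the sum of Ighm, Igj and Igkc. Most V counts there were therefore not matched by counts of these genes. The V median was 13.2 CPM in vehicle C and 4.34 CPM under ruxolitinib. The mean receptor share moved the same way, at 0.0503%, 0.0534%, 0.121%, 0.0204% and 0.00274% in the order given. Its part in the V counts was not tested. The leading segments of MEP and LSK libraries that shared a number at day 7 coincided in part. For number 7, Igkv12-89, Iglv1 and Igkv2-137 took 10.6%, 6.21% and 4.08% in MEP cells, and 13.1%, 15.7% and 5.17% in LSK cells. For number 15, Iglv1 led in MEP cells at 15.8% and Igkv4-53 in LSK cells at 15.5%, and Igkv4-53 was not among the 5 highest in MEP cells. For number 18, Igkv12-89 led in MEP cells at 4.91% and Igkv1-135 in LSK cells at 18.9%, and Igkv1-135 was not among the 5 highest in MEP cells. Igkv12-89 and Iglv1 were among the 5 highest in all 6 of these libraries, whatever their number.

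**Figure D4:**
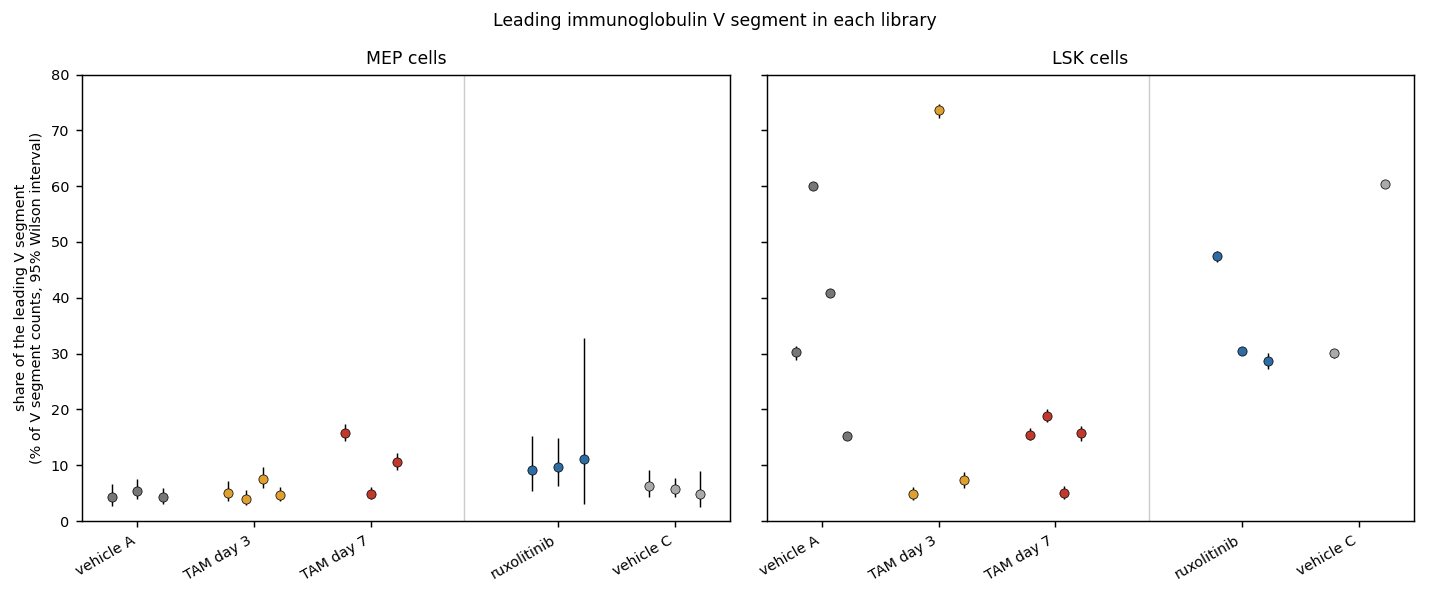
Share of the leading immunoglobulin V segment in each library, as a percentage of all V segment counts, with 95% Wilson intervals, in MEP cells (left) and LSK cells (right). Points are libraries, and the grey line separates batch A (left) from batch C (right). LSK vehicle libraries reach 60.3%, and MEP libraries stay at or below 15.8%.

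Ruxolitinib in MEP cells was the comparison in which most genes moved, so the members are read against a high background. Of the 10 genes 5 were called, 4 lower (Rag2, Notch1, Rag1 and Il7r) and 1 higher (Ighm), against 42% of all genes called, 38.5% lower and 3.43% higher. In 4 genes (Rag1, Rag2, Notch1 and Btla) every ruxolitinib library lay below vehicle C, as did 35.4% of all genes. The median log2 change was -1.99 over the priming genes, 1.49 over the immunoglobulin genes and -1.07 over all genes. A share of 4 in 10 called lower is near that of all genes.

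Rag2 had 0, 2 and 0 counts under ruxolitinib, against 38, 44 and 14 counts in vehicle C (log2 change -5.46 ± 0.92, edgeR adjusted p = 0.000222). The ratio of summed levels was 0.0189, with an exact interval from 0.00225 to 0.07 that covers counting error only. Rag1, its partner, had 0.597, 0.198 and 0.0294 CPM, against 1.35, 1.29 and 0.615 CPM in vehicle C (log2 change -1.99 ± 0.64, edgeR adjusted p = 0.0164). No ruxolitinib library reached a vehicle C library for either gene, although the highest and lowest nearly met for Rag1. The Rag2 call held under every alternative run, whereas Rag1 was not called without ruxolitinib replicate 2 (edgeR adjusted p = 0.0626) or 3 (0.0641), without vehicle C replicate 1 (0.0526) or in the compared groups alone (0.136).

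Notch1 held 1.82, 0.879 and 1.29 CPM under ruxolitinib, against 12.0, 13.4 and 1.91 CPM in vehicle C (log2 change -2.77 ± 0.55, edgeR adjusted p = 0.000618). Vehicle C replicate 3 stood close to the ruxolitinib libraries, and without it the change was -3.17. Il7r held 0.133, 0.0567 and 0.352 CPM, against 0.589, 0.924 and 0.291 CPM, so the groups overlapped (log2 change -1.71 ± 0.6, edgeR adjusted p = 0.026). The Il7r call was lost without ruxolitinib replicate 1 (edgeR adjusted p = 0.08) or 2 (0.13), without vehicle C replicate 1 (0.0559) or 2 (0.145), and in the compared groups alone (0.21). Relative to the median of all genes, Il7r was lower by less than Notch1 or Rag2.

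Btla held 0.0331, 0.113 and 0.0294 CPM, against 0.208, 0.462 and 0.226 CPM in vehicle C (log2 change -2.24 ± 0.92, edgeR adjusted p = 0.0536), from 6 counts under ruxolitinib and 27 in vehicle C. Its groups did not overlap, and it was called without ruxolitinib replicate 2 (edgeR adjusted p = 0.0476).

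Ighm held 2.49, 7.09 and 2.17 CPM under ruxolitinib, against 1.21, 0.297 and 0.226 CPM in vehicle C, with every ruxolitinib library above, as for 5.25% of all genes (log2 change 2.76 ± 1.01, edgeR adjusted p = 0.0306). The call was lost without ruxolitinib replicate 2 (edgeR adjusted p = 0.14), without vehicle C replicate 2 (0.104) or 3 (0.0672), with DESeq2 (0.0663) and among genes with a mean of at least 1 CPM (0.0502). Igkc held 0.729, 1.87 and 0.323 CPM, against 0.381, 0.297 and 0.356 CPM (log2 change 1.49 ± 0.8), and Igj held 0.199, 0.0567 and 0.176 CPM, against 0.208, 0.33 and 0.162 CPM (-0.69 ± 0.79). The summed LSK markers, of which Kit may make up most, were 735 to 787 CPM under ruxolitinib, against 211 to 554 CPM in vehicle C. Their part in the Ighm value was not tested. Unlike Ighm, Igkc and Igj overlapped between the groups and were not called. Dntt held 0.663, 5.3 and 1.44 CPM, against 1.35, 2.21 and 0.226 CPM, and its estimate of 0.97 ± 0.66 turned to -0.16 without ruxolitinib replicate 2.

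The receptor share was 0.00274% ± 0.00141 under ruxolitinib and 0.0204% ± 0.0112 in vehicle C, the same direction as the low priming genes, and its part in their values was not tested. Rag2 was lowest in the 3 MEP libraries with the lowest share. Between vehicle libraries of 1 number the same held for number 33, where Rag2 stood at 0.453 CPM in vehicle C and 2.21 CPM in vehicle A, with shares of 0.00875% and 0.0641%.

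**Figure D5:**
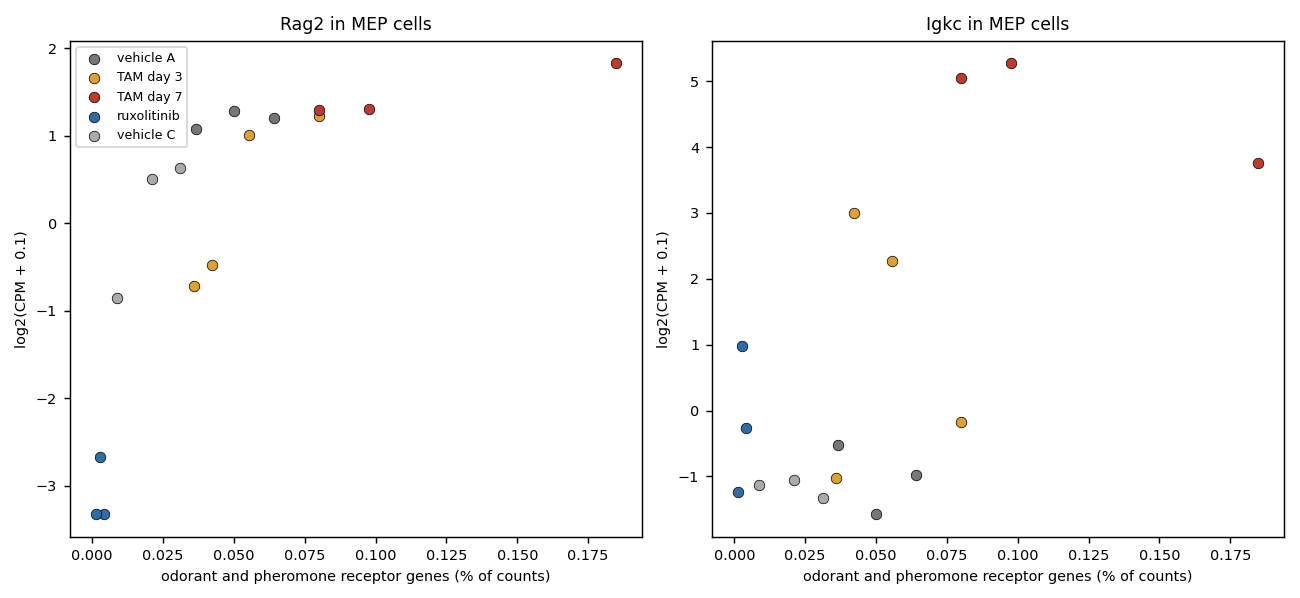
Level of Rag2 (left) and Igkc (right) in the 16 MEP libraries, as log2(CPM + 0.1), against the share of counts in odorant and pheromone receptor genes, in percent. Points are libraries coloured by group. The 3 ruxolitinib libraries have the lowest shares, at or below 0.00411%, and the lowest Rag2, and the tamoxifen day 7 libraries, lie at 0.0801% to 0.185%, and have the highest Igkc.

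Of 21 B lineage genes 10 fell and 2 rose under ruxolitinib, with a median of -1.63, where 38.5% of all genes were called lower. Their summed level overlapped, at 64.2 to 97.7 CPM under ruxolitinib and 50.8 to 109 CPM in vehicle C. Igll1, a part of the surrogate light chain, fell by 4.61 on the log2 scale, and Pax5 and Ebf1, the factors that commit cells to the B lineage, fell by 3.6 and 3.46. Pax5 averaged 0.163 CPM under ruxolitinib and 2.02 CPM in vehicle C. The vehicle C libraries held 2.25, 3.17 and 0.647 CPM of Pax5, at receptor shares of 0.0211%, 0.0312% and 0.00875%. In the ruxolitinib libraries the share was at or below 0.00411%, and its part in the B lineage values was not tested. Cd79b and Cd72 rose, by 2.41 ± 0.58 and 2.56 ± 0.75.

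Other lists divided as well. Of 17 Notch pathway genes tested, 6 fell, among them Heyl by 3.99 and Dtx1 by 3.81, both known targets of Notch, and Mfng rose by 0.74 ± 0.3. Of 11 V(D)J partners, Prkdc, Dclre1c and Lig4 fell by 1.21, 1.02 and 0.9, close to the median of all genes. Of 14 T and NK genes tested, 10 fell and 2 rose, with a median of -2.2. The summed level of the 18 listed was nonetheless higher in every ruxolitinib library. It was 95.4 to 120 CPM there, against 11.2 to 49.5 CPM in vehicle C. Of 9 neutrophil genes tested, 6 fell. Of 28 early lymphoid genes, 6 fell and 4 rose, Cd27 by 1.19 ± 0.42. Of 16 plasma cell genes, 6 fell, Prdm1 by 3.67, and 3 rose: Xbp1, Fkbp11 and Creld2, which also serve secretion in other cells.

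The genes most like Dntt over the 16 LSK libraries, by Pearson's r of log2(CPM + 1), were Pus7l (0.93), Fam60a (0.91), Cd69 (0.88), Xpo5 (0.86) and Nat10 (0.86), out of 19895 genes with a mean of at least 1 CPM. Those most like Igkc over the 16 MEP libraries were Ighg1 (0.95), S100a8 (0.94), Igj (0.94), S100a9 (0.92) and Ptpn14 (0.91), out of 16969 genes, with 2 V segments among the 20 highest passed over. These libraries share depth, batch and treatment, so the values describe likeness only.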

How the data were processed

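RNA of sorted LSK and MEP cells was sequenced with paired ends after a Takara HT-Seq preparation, per the labels' protocols. Reads were aligned with STAR to mm10 and assigned to genes with featureCounts, per the submitters' processing notes. No source used here gives versions, strandedness or how multi-mapping reads were counted, so overlapping, antisense and closely copied genes may share counts. The values are the raw gene counts that the authors deposited, 11160696 to 55473241 per library over 33924 genes, of which 933 were 0 throughout.

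All genes were tested with edgeR 4.0.16 in R 4.3.3 by the quasi-likelihood test on group means, with TMM scaling, a minimum count of 10 in filterByExpr and Benjamini-Hochberg adjustment at 0.05. LSK, MEP and both cell types were fitted separately (26930, 25274 and 28378 genes). The alternatives were DESeq2 1.42.0 and other scalings and filters, limma 3.58.1 with voom, the compared groups alone, a replicate block, and leaving out each library. The procedure was tested on simulated LSK counts, with the same spread for every gene, independent libraries and no changes placed in low genes. That test does not cover the wide spread of LSK vehicle A or the genes near 0 in MEP cells. Intervals of estimates are 2 SE, and intervals of shares are 95% Wilson.

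The genes named are the 10 members, up to 6 called genes per list and comparison by size of change, up to 4 by level where none was called, and the 5 genes most like Dntt and Igkc, passing over unnamed transcripts and V segments. The members and lists were chosen with earlier results of these data known. The receptor share sums 1574 odorant and pheromone receptor genes. Other named genes (Xbp1 and Prdm1 at tamoxifen day 7, markers of other cell types) and V segments below the leading one were chosen after their values were seen.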

Additional observations from a re-analysis of the deposited data

Results flagged for a closer look

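Of 30 pairs of a gene and a group of 4 libraries, 3 had 1 library far from the other 3. The rule flags about 1 in 20 when values are normally distributed and independent. Unlogged CPM are skewed and the pairs are not independent, so the 3 cannot be set against that rate. Igkc in LSK vehicle A replicate 4 stood at 7338 CPM with the nearest library at 1309 CPM, a gap of 0.839 of the range. Igj in the same library stood at 3568 CPM with the nearest at 568 CPM, a gap of 0.863 of the range. Satb1 in LSK tamoxifen day 7 replicate 4 stood at 21.0 CPM with the nearest at 15.6 CPM, a gap of 0.901 of the range.

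The day 7 response differed between MEP and LSK cells by 5.53 for Ighm, 8.26 for Igj and 10.07 for Igkc on the log2 scale, as given above. Under ruxolitinib, Ighm was above vehicle C in every MEP library and below it in every LSK library, and the fitted changes lay 3.8 apart on the log2 scale, a difference that was not tested.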

How the results depend on the processing

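Of the estimates for single genes under the alternatives, 1248 kept direction and side of the threshold, 37 passed it newly, 26 lost it and 43 changed sign. The cause was not tested. Replicates of 1 number did not deviate together in all pairs. The LSK vehicle A and day 7 libraries that also share the description number 18 had a correlation of 0.00, and no other treated library shares a description number with its vehicle. The replicate block is therefore given here alone. It gave 1 member (Igj, adjusted p = 0.0395) and 230 genes called in LSK at day 7, 267 genes in LSK day 7 against day 3, and log2 changes of 0.72 (Dntt, LSK day 7), 0.12 (Notch1, LSK day 3), -0.23 (Dntt, MEP day 3) and 0.12 (Satb1, MEP day 7 against day 3). In MEP ruxolitinib the block ended the calls of Il7r (0.0533) and Ighm (0.0519) and gave a call of Btla (0.031).

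DESeq2 called 5 members and 93 genes in LSK day 3, 4 and 334 in LSK day 7, 1 and 132 in LSK ruxolitinib, 1 and 308 in LSK day 7 against day 3, 1 and 682 in MEP day 3, and 897 genes for the difference between cell types. Without the filter these were 2 genes, 1 member and 54 genes, 14 genes, 16 genes and, in MEP day 3, 1 member. The compared groups alone gave 2 genes (LSK day 3), 9 (LSK day 7), 11 (LSK ruxolitinib), 1 member and 289 genes (LSK day 7 against day 3), 1 and 633 (MEP day 3), 3 and 3090 (MEP ruxolitinib), 4 members (MEP day 7 against day 3) and 70 genes (difference between cell types). For that difference RLE gave 231 genes, a mean of at least 1 CPM 1103, and voom 0 members and 52 genes, with Dntt at -0.18, and Rag2 was 0.19 with RLE and with DESeq2. Satb1 in MEP day 7 against day 3 was 0.13 with RLE and DESeq2 and 0.11 above 1 CPM.

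Leaving out 1 library at a time, the genes called ranged over 0 to 88 (1 to 88 where they moved, highest without vehicle A replicate 3) in LSK day 3, 2 to 911 in LSK day 7 and 1 to 797 in LSK day 7 against day 3 (both highest without day 7 replicate 4), 2 to 4 (2 to 3 where moved) in LSK ruxolitinib, 98 to 383 (98 to 177 where moved) in MEP day 3, 1313 to 2093 in MEP day 7, 7068 to 12024 in MEP ruxolitinib and 29 to 275 for the difference. Members called ranged over 0 to 2, 0 to 1, 0 to 1 and 3 to 4 in LSK day 3, LSK day 7, MEP day 3 and MEP ruxolitinib. Estimates that changed sign ranged as follows. In LSK day 3 they were -0.35 to 0.18 (Notch1), -0.18 to 0.68 (Rag1), -0.4 to 0.00 (Rag2) and -0.87 to 0.22 (Satb1). In LSK day 7 they were -0.48 to 0.45 (Btla), -0.56 to 0.87 (Dntt) and -0.92 to 0.12 (Satb1), and against day 3, -0.15 to 0.69 (Rag1) and -0.24 to 0.2 (Satb1). In LSK ruxolitinib they were -1.12 to 0.57 (Igkc), -1.85 to 1.18 (Rag1) and -1.59 to 0.37 (Satb1). In MEP day 3 they were -0.13 to 0.33 (Dntt, -0.13 and -0.01 where reversed), -0.29 to 1.58 (Ighm) and -0.11 to 0.39 (Satb1). In MEP day 7 they were -0.46 to 0.39 (Notch1) and -0.13 to 0.37 (Satb1, -0.13 and -0.1 where reversed), and against day 3, -0.17 to 0.11 (Satb1). In MEP ruxolitinib Dntt ran from -0.16 to 1.65. For the difference they were -0.33 to 1.18 (Dntt), -0.1 to 0.76 (Notch1), -0.33 to 0.26 (Rag2) and -0.08 to 1.05 (Satb1).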

Other observations

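In the difference between cell types at tamoxifen day 7, none of the 21 B lineage genes was called by edgeR (5 had an unadjusted p below 0.05), 2 of 16 plasma cell genes and 2 of 28 early lymphoid genes were called higher, and 0.296% of all genes were called higher. The lambda constant regions Iglc2 and Iglc3 differed by 4.91 ± 1.13 and 9.51 ± 1.93 on the log2 scale (edgeR adjusted p = 0.0369 and 0.0165). Iglc3 stood at 4.24, 4.0, 1329 and 371 CPM in LSK vehicle A replicates 1 to 4, and at no more than 4.39 CPM in LSK day 7 libraries. In MEP cells it reached at most 0.321 CPM in vehicle A and 1.11 CPM at day 7. Its difference thus rests mainly on LSK vehicle A replicates 3 and 4. Ly6d, a surface marker of early B lineage progenitors, differed by 7.11 ± 1.22 (edgeR adjusted p = 0.00225), and stood at 1.11 CPM in MEP day 7 libraries and 0.0813 CPM in MEP vehicle A. In LSK cells Ly6d held 3.46, 5.96, 4.24 and 40.1 CPM in vehicle A replicates 1 to 4, and 0.54 to 1.73 CPM at day 7. Ets1 differed by 1.83 ± 0.44 (edgeR adjusted p = 0.0467).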
